A study of Mus musculus with 8 samples.

Results

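Tek (also called Tie2), Tie1, Angpt1 and Angpt2 are the receptors and the main ligands of the angiopoietin pathway. They were taken by symbol from a table of 34536 genes, and all 4 had enough counts to be tested. The table came from RNA sequencing of mouse cells that were taken by fluorescence sorting from embryoid bodies, which are aggregates of differentiating pluripotent stem cells. Group sizes were 4 libraries labelled endocardial (A, C, E and G) and 4 labelled endothelial (B, D, F and H). Endocardium is the name of the cell layer that lines the heart. The labels give no genotype, strain, treatment or culture time for either group, and neither the stem cell line nor the markers of the sort is named in the sources used here. They also do not say that libraries of 1 group came from separate cultures, so p-values describe the spread between these libraries, which may be technical.

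Tek and Tie1 are receptor tyrosine kinases found mostly on endothelial and endocardial cells and on some blood-forming cells. Angpt1, made largely by mesenchyme, mural cells and heart muscle, binds and activates the Tek receptor. Angpt2, made largely by endothelial cells, binds the same receptor and activates it weakly or blocks it depending on context. Tie1 binds angiopoietins poorly by itself and acts mainly as a partner of the Tek receptor. In mice, loss of Tek or of Angpt1 disturbs vessel remodelling and the folding of the endocardium, which gives the pathway its interest in cells labelled endocardial.

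The members lie on 3 chromosomes of mouse build GRCm38 and are all protein-coding. Tek spans chromosome 4 from 94739289 to 94874976 on the plus strand, and Tie1 spans chromosome 4 from 118471191 to 118490061 on the minus strand. Angpt1 lies on the minus strand of chromosome 15, from 42424723 to 42676977. A noncoding gene annotated as antisense to Angpt1, Gm17473, shares 737 exon bases with it. Angpt2 lies on the minus strand of chromosome 8, from 18690263 to 18741562, inside Mcph1 on the plus strand, with which it shares 0 exon bases. The library kit was stranded, but whether the counting used the strand is not stated, so reads of Angpt1 and of its antisense partner may not have been told apart.

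The stretches before the Tek and Tie1 starts are shown because ETS factors, several of which are described below, are known to act at both receptor genes. The sequences are from RefSeq (GRCm38.p6), 5′ to 3′ on the strand of each gene. Capitals mark matches to the ETS-type motifs AGGAAG and CGGAAG, which were searched for on both strands of the 250 bases before each RefSeq start and do not overlap each other there. For Tek all 250 bases are printed (chr4:94739039-94739288, plus strand). For Tie1 the outermost 38 bases are printed (chr4:118490062-118490099, minus strand), because the rest of its window lies in a first exon annotated by GENCODE.
Tek: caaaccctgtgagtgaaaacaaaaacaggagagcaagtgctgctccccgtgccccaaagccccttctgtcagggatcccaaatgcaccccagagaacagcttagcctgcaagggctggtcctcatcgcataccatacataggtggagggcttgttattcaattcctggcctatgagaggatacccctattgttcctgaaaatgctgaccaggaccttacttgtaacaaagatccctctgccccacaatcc
Tie1: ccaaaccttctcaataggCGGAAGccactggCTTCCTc
The Tie1 window held 2 matches, 1 to CGGAAG beginning 232 bases before the start and 1 to AGGAAG on the opposite strand beginning 219 bases before it. The Tek window held 0 matches to these strings. It does hold ttcct, which reads AGGAA on the opposite strand, but shorter or other ETS-type strings were not searched for. Of 32851 windows of the same length, 39.2% held either motif. The GATA motif AGATAA, found in 9.99% of windows, and the Fox motif GTAAACA, found in 3.17%, had 0 matches in both genes. A match is a string of letters and not a site of binding, and the windows leave out enhancers.

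The total of estimated counts per library ran from 7689574 to 9586200 in the endocardial and from 6677667 to 11369363 in the endothelial libraries. A gene with 0 counts could have had up to 0.267 to 0.438 CPM (counts per 1000000 TMM-scaled counts of the library), which is what 3 counts are worth and takes in counting error alone. All 18 genes listed as pan-endothelial comparators had counts, and their summed level was 1383 to 1612 CPM in the endocardial libraries and 434 to 597 CPM in the endothelial libraries. Of the 17 that were tested, 14 were called higher in the endocardial libraries, beside 1.42% of all tested genes. Transcripts of these endothelial genes thus made up a smaller share of the counts in the libraries labelled endothelial. The summed level of 10 pluripotency markers was 306 to 454 CPM in endocardial libraries and 410 to 1259 CPM in endothelial ones, with the highest value in library F. Most of the endocardial sum was Lin28a, and the other 9 markers summed to 19.1 to 127 CPM in endocardial libraries and 133 to 978 CPM in endothelial ones, without overlap. In such bulk samples, fewer cells of a type and less RNA per cell cannot be told apart.

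Of the 4 members, Tie1 was the one called different between the groups. By edgeR's quasi-likelihood test with Benjamini-Hochberg adjustment over 13817 genes, 1 of the 4 members was called higher in the endocardial libraries and 0 were called lower, and DESeq2 and limma each gave the same counts. Of the 4, 1 had an unadjusted p under 0.05. Over all tested genes, 1.42% were called higher and 1.16% lower, 2.58% in all, and 14.6% had an unadjusted p under 0.05. The members' median log2 fold change was -0.04, and that of all tested genes was 0.01.

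Tie1 was at 194 CPM in library A, 144 in C, 148 in E and 163 in G of the endocardial group. In the endothelial libraries it was at 33.3 CPM in B, 25.1 in D, 23.8 in F and 21.9 in H. The groups lay far apart, as the lowest endocardial value was over 4 times the highest endothelial one. Groups that did not overlap were found for 9.76% of all tested genes. Tie1 averaged 162 ± 22.6 CPM in endocardial libraries and 26.0 ± 5.01 CPM in endothelial ones (SD, n = 4 each). It was 6.22-fold higher in the endocardial libraries (log2 fold change 2.64, SE 0.16, 95% interval 2.28 to 2.99; edgeR adjusted p = 2.38e-05), and only 6 of the 13817 genes had a smaller p. The call held in all 8 fits that leave out 1 library, where the log2 fold change was between 2.52 and 2.79. These values were made of 1306 to 1501 counts per endocardial library and 172 to 373 counts per endothelial library.

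Tek, the signalling receptor, was well expressed in both groups and spread more widely within the endothelial one. It was at 214 CPM in A, 217 in C, 168 in E and 322 in G of the endocardial group. In the endothelial group it was at 264 CPM in B, 184 in D, 49.5 in F and 334 in H. The groups overlapped throughout, since the highest and the lowest values of all 8 libraries, in H and in F, were both endothelial. Tek averaged 230 ± 65.2 CPM in endocardial libraries and 207.9 ± 122 CPM in endothelial ones (SD, n = 4 each), and edgeR did not call it (log2 fold change 0.15, SE 0.47; adjusted p = 0.932). The 95% interval of its log2 fold change, -0.90 to 1.19, spans from a 0.535-fold to a 2.29-fold level, so a difference within that range was not excluded here. The sign rested on single libraries: it was -0.20 without F and -0.05 without G, against 0.47 without H.

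**Figure D1:**
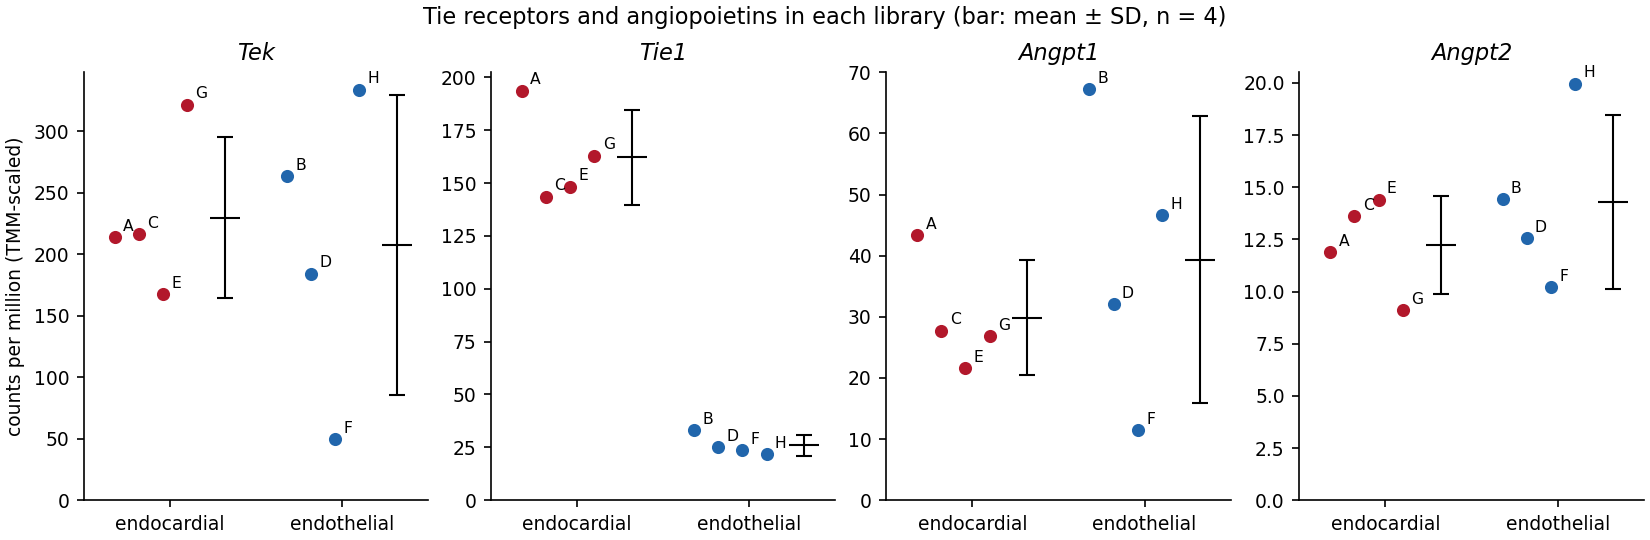
Level of each gene in CPM (TMM-scaled, linear axis from 0) in the 4 endocardial libraries (red, left) and the 4 endothelial libraries (blue, right), lettered, with the mean and SD beside them. Tie1 lies at 144 to 194 CPM in endocardial libraries and 21.9 to 33.3 CPM in endothelial ones, while the groups overlap for Tek, Angpt1 and Angpt2.

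The ligand genes were lower in level than Tek, and neither was called. Angpt1, the activating ligand, was at 43.4 CPM in A, 27.7 in C, 21.6 in E and 26.8 in G of the endocardial group. In the endothelial group it was at 67.2 CPM in B, 32.1 in D, 11.5 in F and 46.6 in H. As for Tek, library F had the lowest value of all 8, and the endothelial values enclosed the endocardial ones. Angpt1 averaged 29.9 ± 9.39 CPM in endocardial libraries and 39.4 ± 23.5 CPM in endothelial ones (SD, n = 4 each; log2 fold change -0.40, SE 0.44, 95% interval -1.40 to 0.59; edgeR adjusted p = 0.762). The log2 fold change was -0.73 without F (edgeR adjusted p = 0.326) and 0.0074 without B.

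Angpt2, the context-dependent ligand, was the lowest of the 4 genes, with 73 to 134 counts per endocardial library and 86 to 167 counts per endothelial library. It was at 11.9 CPM in A, 13.6 in C, 14.4 in E and 9.11 in G of the endocardial group, and at 14.4 CPM in B, 12.6 in D, 10.2 in F and 20.0 in H of the endothelial group. The groups overlapped, with the highest value in H and the lowest in G. The means were 12.3 ± 2.35 CPM in endocardial libraries and 14.3 ± 4.16 CPM in endothelial ones (SD, n = 4 each; log2 fold change -0.22, SE 0.23, 95% interval -0.73 to 0.29; edgeR adjusted p = 0.743). The interval of its log2 fold change was narrower than those of Tek and Angpt1. Without H the log2 fold change was -0.02.

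Within the endothelial group, Tek and Angpt1 were among the more variable genes. Their coefficients of variation (SD over mean) were 58.7% and 59.7%, against a median of 15.1% over the 11387 tested genes with at least 5 CPM there, and 96.1% and 96.2% of those genes varied less. The coefficient was 19.3% for Tie1 and 29.1% for Angpt2. Library F moved with this spread: it held the least Tek and Angpt1, the highest summed level of pluripotency markers at 1259 CPM, and the lowest of mural markers, genes of smooth muscle and pericytes. The 9 mural markers summed to 1712 to 2604 CPM in the endocardial libraries, and to 999 CPM in F and 2065 to 2342 CPM in B, D and H. Library B held the most Angpt1 and also the highest summed level of 8 mesenchyme markers, at 22350 CPM, against 3655 to 7113 CPM in the endocardial libraries and 3260 to 7545 CPM in D, F and H. The part of these other cells in the levels of Tek and Angpt1 was not tested.

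To compare genes with each other, levels were divided by the length of their joined exons, giving CPM per kb. In the endocardial libraries Tek was at 48.8 ± 13.8, Tie1 at 33.0 ± 4.60, Angpt1 at 5.74 ± 1.80 and Angpt2 at 3.32 ± 0.636 CPM per kb (SD, n = 4). The ranges of Tek and Tie1 overlapped there, while both receptors lay above both ligands in every library and Angpt1 lay above Angpt2. In the endothelial libraries the order was Tek at 44.1 ± 25.9, Angpt1 at 7.56 ± 4.52, Tie1 at 5.29 ± 1.02 and Angpt2 at 3.87 ± 1.13 CPM per kb (SD, n = 4), and the ranges of neighbours in that order overlapped. Tek exceeded Angpt1 per kb in all 8 libraries, by 5.44 to 13.3 times in the endocardial and 4.33 to 7.91 times in the endothelial libraries. Angpt1 exceeded Angpt2 per kb in all 4 endocardial libraries and in B, D and H, and was 0.796 times Angpt2 in F.

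The ratio of the receptors did not overlap between the groups, while that of the ligands did. Tie1 by itself did not overlap either, and how many other gene pairs separate in this way was not counted. Per kb, Tie1 was at 0.869 of the Tek level in A, 0.635 in C, 0.847 in E and 0.485 in G of the endocardial group. In the endothelial group it was at 0.121 of the Tek level in B, 0.131 in D, 0.460 in F and 0.0628 in H. Every endocardial ratio was above every endothelial one, but F came close to G. On the log2(CPM + 0.5) scale the Tie1 to Tek ratio was -0.47 ± 0.40 in the endocardial and -2.69 ± 1.19 in the endothelial libraries (SD, n = 4 each), a difference of 2.22. The two-sided exact permutation p was 0.0286, the smallest that 4 against 4 libraries can give, and 0.114 after adjustment over the 4 ratios tested. No single ratio could pass 0.05 by itself after that adjustment, so the adjusted value decides nothing about this ratio.

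The Angpt2 to Angpt1 ratio was -1.23 ± 0.55 in the endocardial and -1.22 ± 0.83 in the endothelial libraries on the log2 scale (SD, n = 4 each), and the groups overlapped. The difference was -0.01, with a two-sided exact permutation p of 1. The level of Tek relative to the mean log2 level of the 17 tested pan-endothelial comparators was 2.54 ± 0.58 in the endocardial and 4.06 ± 1.34 in the endothelial libraries (SD, n = 4 each). Library F had the lowest of the endothelial values. The difference of -1.52 had a two-sided exact permutation p of 0.114 (0.152 adjusted), and was -2.15 without F (adjusted permutation p = 0.0571), -2.59 with Cdh5 as the only comparator and -0.43 with Pecam1 as the only one. Tie1 relative to the same comparators was 2.07 ± 0.31 in the endocardial and 1.37 ± 0.30 in the endothelial libraries (SD, n = 4 each). That difference was 0.70 (two-sided exact permutation p = 0.0571, adjusted 0.114). The difference for Tie1 was -0.37 with Cdh5 alone, a turn in direction, and 1.79 with Pecam1 alone. Of the 17 comparators, Cdh5 had the highest log2 fold change between the groups (3.04) and Pecam1 the lowest (0.82).

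**Figure D2:**
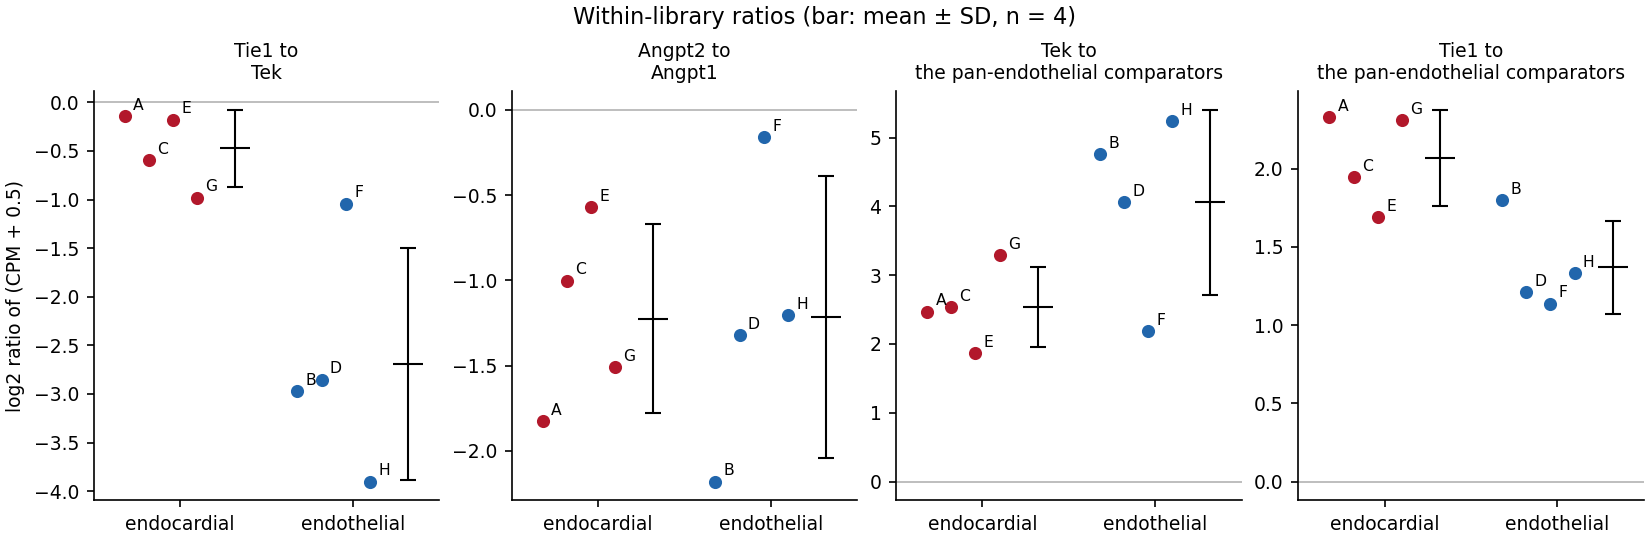
Log2 ratios of (CPM + 0.5) within each lettered library, endocardial in red on the left and endothelial in blue on the right, with mean and SD. The Tie1 to Tek ratio is between -0.98 and -0.14 in the endocardial and between -3.90 and -1.04 in the endothelial libraries, and the Angpt2 to Angpt1 ratio overlaps between the groups.

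The receptors were next compared with other endothelial genes and with all genes across the libraries. Among the pan-endothelial comparators, Tie1's log2 fold change of 2.64 was above that of 15 and below that of 2 of the 17, whose median was 2.16 and range 0.82 to 3.04. Tek's log2 fold change of 0.15 was below that of all 17. The genes most like each member were found by Pearson's r of log2 CPM over the 8 libraries, among 10922 genes with at least 5 CPM. For Tie1 they were Plxnd1, a semaphorin receptor (r = 0.998), Rasgrp3, an activator of Ras proteins (0.995), Abi3 (0.995), Cdh5, the cadherin of endothelial junctions (0.994), and the VEGF receptor Flt1 (0.989). All 5 were called higher in the endocardial libraries, with log2 fold changes from 1.22 to 3.04.

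For Tek the most alike were Ldah (r = 0.996), Vwa5a (0.991), Gas6, a secreted ligand of the Axl family of receptors (0.984), the protease gene Capn2 (0.982) and the cytoskeletal gene Add1 (0.982). None of these 5 was called, and their log2 fold changes lay between -0.01 and 0.27. Tek and Tie1 themselves had r = 0.277, while Tek and Angpt1 had r = 0.795 over the 8 libraries. Library F held the lowest value of both Tek and Angpt1, and r without F was not computed. For Angpt1 the most alike were Olfr1023, listed as an olfactory receptor gene, Yipf3, the transcription factor gene Nfia, the desmosome gene Dsp and the phosphatase gene Dusp22, at r = 0.970 to 0.976. For Angpt2 they were Vnn1, Spcs2, Mr1, Efl1 and Anxa4, at 0.872 to 0.901. These values describe 8 libraries in 2 groups, so for Tie1 and its 5 they largely reflect the difference between the groups. By Spearman's rho, 0, 0, 1 and 1 of the 5 stayed among the top 5 for Tek, Tie1, Angpt1 and Angpt2. With 8 libraries rho takes few values, so ties can decide which genes fill that top 5. The rho of the 5 named genes was 0.929 to 0.976 for Tek, 0.905 to 0.976 for Tie1 and 0.952 to 1 for Angpt1. It was lower for Angpt2, at 0.738 to 0.929.

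**Figure D3:**
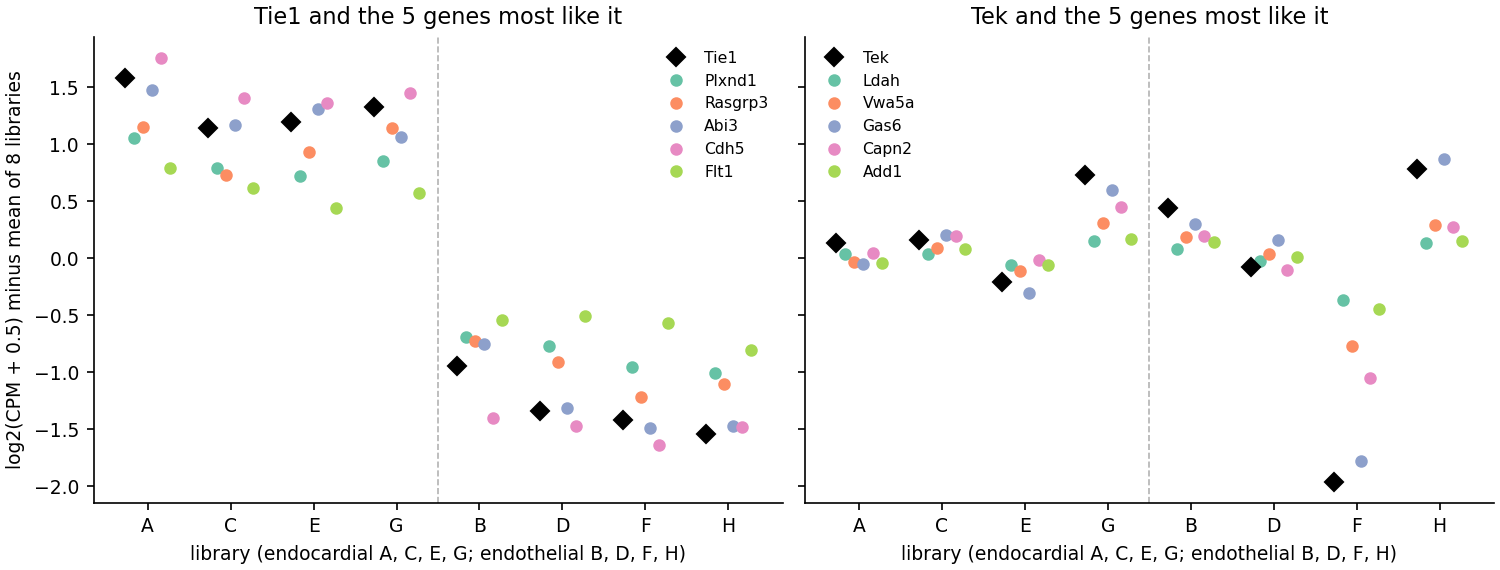
Level on the log2(CPM + 0.5) scale, minus the mean of the 8 libraries, of Tie1 (left) and Tek (right) as black diamonds, with the 5 genes most like each as coloured points, by library (endocardial A, C, E and G left of the dashed line, endothelial B, D, F and H right of it). Tie1 and its 5 are high in every endocardial library, and Tek and its 5 are lowest in library F.

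Genes around the receptors were described from 6 lists holding 57 genes, of which 52 were tested. Of these, edgeR called 9 higher in the endocardial libraries and 0 lower, while an unadjusted p under 0.05 was reached by 12 that were higher and 1 that was lower. DESeq2 called 10 higher and 1 lower, and limma 10 and 0. Over all 13817 tested genes, DESeq2 called 330 higher and 530 lower, and limma 410 and 565. At an unadjusted p under 0.05, 781 of all tested genes were higher and 1242 lower. The median log2 fold change of the 52 was 0.11, against 0.01 over all genes, where 1.42% were called higher and 1.16% lower. The 9 called genes were Ptprb, Nos3 and 7 transcription factor genes.

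Of 13 adaptor and phosphatase genes, 1 was called higher and 0 lower, with a list median of 0.10. Ptprb, the receptor phosphatase that removes phosphate from the Tek receptor, was at 25.3, 26.5, 30.8 and 34.8 CPM in endocardial libraries A, C, E and G, and at 3.66, 2.92, 3.13 and 2.87 CPM in endothelial libraries B, D, F and H. It rose 9.24-fold in the endocardial libraries (log2 fold change 3.21, SE 0.17, edgeR adjusted p = 1.68e-05). Of the 52 listed genes it was the one most like Tie1 over the 8 libraries (r = 0.988), a comparison added after the data were seen. Both genes were called higher, so this r largely reflects the difference between the groups. Within the endocardial group Tie1 was highest in A, where Ptprb was lowest. Within the endothelial group both were highest in B and lowest in H. The adaptor gene Shc1 was at 242 ± 22.4 CPM in endocardial libraries and 196 ± 36.0 CPM in endothelial ones, and the phosphatase gene Ptpn11 was at 198 ± 10.7 CPM in endocardial libraries and 187 ± 27.0 CPM in endothelial ones (SD, n = 4 each), neither called. Grb7, an adaptor gene named after its value was seen, stood at a log2 fold change of -0.94 and was called lower by DESeq2 only among the tools (adjusted p = 0.0415, against 0.123 by edgeR).

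Of 12 genes of the PI3K, Akt and Foxo arm, by which the Tek receptor supports survival, 1 was called higher and 0 lower, with a median of 0.09. Nos3, the endothelial nitric oxide synthase that Akt activates, was at 26.7, 27.9, 27.3 and 27.7 CPM in the endocardial libraries A, C, E and G, and at 3.21, 5.26, 4.07 and 3.59 CPM in the endothelial libraries B, D, F and H. It rose 6.85-fold (log2 fold change 2.78, SE 0.17, edgeR adjusted p = 2.77e-05). The kinase genes Akt1 and Akt2 had log2 fold changes of 0.06 and -0.06. Foxo1, which Akt restrains and which drives Angpt2 in endothelial cells, was at 20.6 CPM in endocardial libraries and 16.8 CPM in endothelial ones (log2 fold change 0.29, edgeR adjusted p = 0.525). Foxo4 was not called either, at a log2 fold change of 0.38. Akt2 and Foxo1 were named after their values were seen.

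edgeR called none of the further ligand genes. Of 10 angiopoietin-like and other Tie ligand genes, 5 were tested and 0 were called by edgeR, DESeq2 or limma, with 0 at an unadjusted p under 0.05, and all 5 log2 fold changes were negative, with a median of -0.18. Svep1, a secreted matrix protein that binds Tie1, was at 179, 186, 108 and 273 CPM in endocardial libraries A, C, E and G, and at 286, 229, 55.1 and 331 CPM in endothelial libraries B, D, F and H. Its highest and lowest values were in H and F, as for Tek. Angptl2 had a log2 fold change of -0.18, and Angpt4, the other angiopoietin gene and named after its value was seen, was at 5.21 ± 2.26 CPM in endocardial libraries and 5.68 ± 2.46 CPM in endothelial ones (SD, n = 4 each). The 5 that were not tested had too few counts.

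Of 5 genes of integrins that bind angiopoietins and 3 of proteases that shed or cut surface receptors, 0 were called by edgeR, DESeq2 or limma and 0 had an unadjusted p under 0.05. The list medians were 0.10 and 0.11. Itgb1 was at 1056 ± 125 CPM in endocardial libraries and 985 ± 227 CPM in endothelial ones, and Itga5 was at 285 ± 43.2 CPM in endocardial libraries and 263 ± 76.8 CPM in endothelial ones (SD, n = 4 each). The protease genes Mmp14 and Adam10 had log2 fold changes of 0.11 and 0.15. The groups overlapped for each of these 4 genes.

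Of the 6 pathway lists, the transcription factors known to act at Tek, Tie1 or Angpt2 held the most called genes. The lists were written with earlier results of these data known, so this ranking is a description and not a test. Of 14, 7 were called higher and 0 lower, beside 1.42% and 1.16% of all tested genes. At an unadjusted p under 0.05, 9 were higher, and the list median was 1.35. The pan-endothelial comparators rose more often and further, with 14 of 17 tested called higher and a median log2 fold change of 2.16. A rise was therefore not particular to these factors. The ETS factor genes Erg, Ets2 and Fli1 rose 7.08-, 2.99- and 3.70-fold. Erg was at 27.9, 30.4, 36.6 and 34.6 CPM in endocardial libraries A, C, E and G, and at 4.10, 5.70, 4.49 and 4.07 CPM in endothelial libraries B, D, F and H (log2 fold change 2.82, SE 0.17, edgeR adjusted p = 2.19e-05). Factor genes shared by blood and endothelium also rose, Tal1 5.05-fold, Lmo2 4.14-fold and Gata2 4.07-fold.

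Ets1 was the seventh, at a log2 fold change of 1.12 (edgeR adjusted p = 0.0478), and it lost the call without A, C, D, E, G or H and in 2 further fits. Etv2, which encodes an early endothelial ETS factor, stood at a log2 fold change of 1.57 and was called by DESeq2 and limma but not by edgeR (adjusted p = 0.0622). The hypoxia factor gene Hif1a was at 175 ± 21.9 CPM in endocardial libraries and 169 ± 32.7 CPM in endothelial ones (SD, n = 4 each), and Elf2, another ETS factor gene, was at a log2 fold change of 0.20. Ets1 and Etv2 were named after their values were seen. Markers of blood and hemogenic cells, which also express Tal1, Lmo2 and Gata2, summed to 507 to 1633 CPM in endocardial libraries and 257 to 2356 CPM in endothelial ones. Without the 3 globin genes the sums were 161 to 451 CPM in endocardial libraries and 44.7 to 240.0 CPM in endothelial ones, with B the highest of the endothelial values. Of these 10 markers, edgeR called 1 higher in the endocardial libraries and DESeq2 and limma 3 each, with 3 at an unadjusted p under 0.05, 8 positive and a median log2 fold change of 1.16. Over all 13817 tested genes the counts called higher were 196 by edgeR, 330 by DESeq2 and 410 by limma, with 781 higher at an unadjusted p under 0.05. Their part in the rise of Tal1, Lmo2 and Gata2 was not tested.

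**Figure D4:**
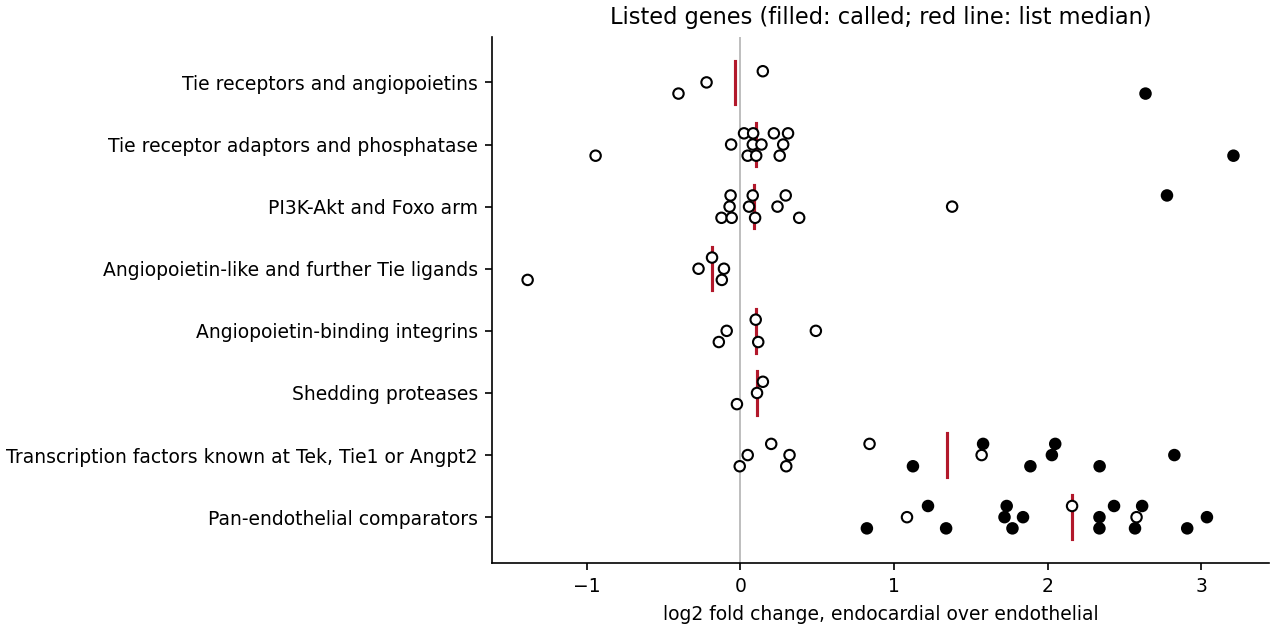
Log2 fold change, endocardial over endothelial libraries, of each tested gene by list, with called genes filled and the list median as a red line. Tie1, Ptprb and Nos3 stand apart within their lists, the transcription factors are divided between 7 called and 7 not called, and all 17 tested comparators are above 0.

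Markers of other cells that the sort could have held were called mainly in the pluripotent and neural lists, and 0 listed markers lacked counts in every library. Of all 13817 tested genes, edgeR called 160 lower in the endocardial libraries, DESeq2 530 and limma 565, and 1242 were lower at an unadjusted p under 0.05. The matching counts of higher genes were 196, 330, 410 and 781. Of 10 pluripotency markers edgeR called 2 lower, DESeq2 7 and limma 9, and 9 had an unadjusted p under 0.05, with a list median log2 fold change of -3.26. Of 7 tested neural markers edgeR called 4 lower, DESeq2 and limma 5 each, and 5 had an unadjusted p under 0.05, with a list median of -2.26. Of 9 mural, 8 mesenchyme and 9 tested cardiomyocyte markers, edgeR called 0, and DESeq2 and limma each called 0, 0 and 1, the 1 being higher. At an unadjusted p under 0.05, 1 mural marker was higher and 1 mesenchyme marker lower in the endocardial libraries. Of the cardiomyocyte markers, 3 were higher and 1 lower at that level. The list medians were 0.29, -0.90 and 0.72, and 8 of the 9 cardiomyocyte markers had a positive log2 fold change. The cardiomyocyte markers, whose cells can make Angpt1, summed to 208 to 417 CPM in endocardial libraries and 166 to 306 CPM in endothelial ones. The neural markers summed to 146 to 222 CPM in endocardial libraries and 195 to 333 CPM in endothelial ones. Nes made up most of these sums except in F, where it was at 157 CPM of 333 CPM. The other 7 neural markers summed to 18.2 to 36.2 CPM in endocardial libraries and 57.9 to 176 CPM in endothelial ones, without overlap. The part of these cells in the members' levels was not tested.

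**Figure D5:**
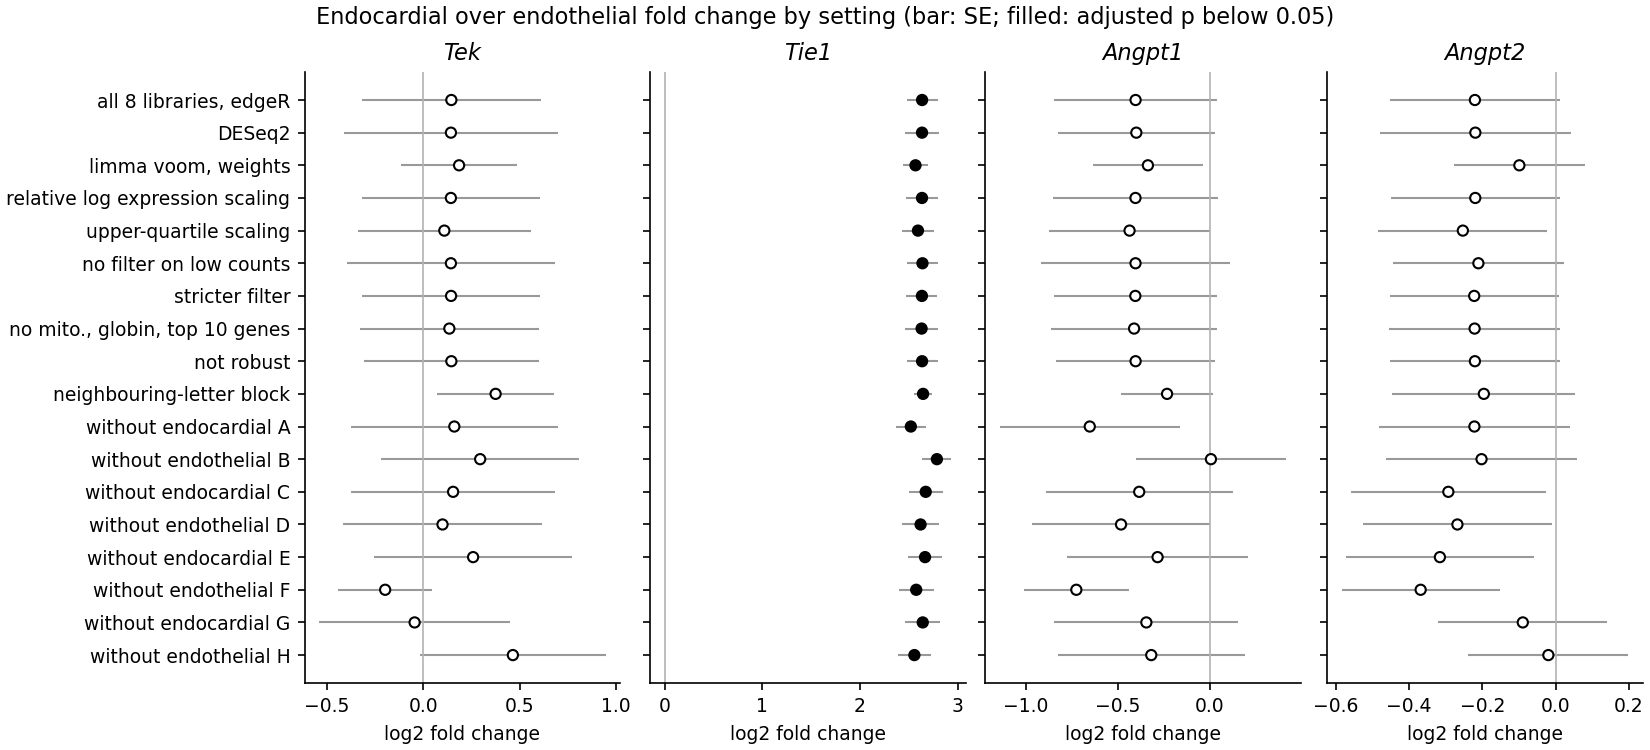
Log2 fold change, endocardial over endothelial libraries, of the 4 genes under each test, scaling, filter and left-out library, with SE bars and filled points for an adjusted p below 0.05. Tie1 stays between 2.52 and 2.79 and called throughout, while Tek and Angpt1 cross 0 when single libraries are left out.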

How the data were processed

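RNA was extracted with a silica column kit and made into libraries with a stranded mRNA kit, per the labels' protocols. Per gene symbol, the deposited table holds estimated counts, all whole and not brought to a common total. Salmon, DESeq2 and build mm10 are named per the submitters' processing notes, without versions or roles. Rounding before the count tests changed no value. Genes passed edgeR's filterByExpr at a count of at least 10 and a total of at least 15. TMM scaling and the robust quasi-likelihood F-test were run in edgeR 4.0.16 (R 4.3.3) on all 8 libraries, endocardial minus endothelial. P-values were adjusted by Benjamini-Hochberg over all tested genes and called below 0.05. The fit was tested on simulated data with known fold changes. Each SE is the log2 fold change over the root of F, and intervals use the t distribution with the fit's degrees of freedom. Ratios used a pseudocount of 0.5 CPM and exact permutation over 70 assignments, adjusted over 4 ratios. Lengths, coordinates and symbols are from GENCODE M21 (GRCm38, the assembly of mm10), which holds 13628 of the 13817 tested symbols.

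The members and the lists were chosen with earlier results of these data known. Named from each list were up to 6 called genes with the smallest p and the 2 most abundant not called. The 5 genes most like each member were taken over 8 libraries, with predicted gene models left out. Alternatives were DESeq2 1.42.0, limma 3.58.1 (voom with sample quality weights, which give less weight to libraries that vary more), other scalings and filters, libraries of neighbouring letters as a block, and leaving out each library. No label pairs the libraries.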

Additional observations from a re-analysis of the deposited data

How the results depend on the processing

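Tie1 was called in all 17 alternatives, with a log2 fold change of 2.52 to 2.79 and an edgeR, DESeq2 or limma adjusted p of at most 0.000443. Tek, Angpt1 and Angpt2 were called in none of theirs. With 1 library left out, Tek ran from -0.20 to 0.47, Angpt1 from -0.73 to 0.0074 and the Angpt2 to Angpt1 ratio from -0.33 to 0.34, and that ratio was 0.0124 with a pseudocount of 2 CPM. With Cdh5 as the only comparator, the log2 difference was -2.59 for Tek and -0.37 for Tie1, each with an adjusted exact permutation p of 0.0381. Cdh5 had the highest log2 fold change of the comparators between these same groups (3.04). These p-values therefore carry the difference of Cdh5 itself and are not separate evidence on Tek or Tie1. With the longest transcript as length, Tie1 was at 38.3 CPM per kb in the endocardial libraries. In all, 196 genes were called higher and 160 lower by edgeR, against 330 and 530 by DESeq2, 410 and 565 by limma with sample weights, and 505 and 699 with neighbouring letters as a replicate block, a pairing that no label gives. With 1 library left out, 99 to 230 were called higher and 35 to 227 lower, and both counts were lowest without E (99 and 36), D (99 and 39), C (110 and 47), A (117 and 72) and G (118 and 35). Of the listed pathway genes, 8 to 10 were called higher in every alternative, and the count called lower was 1 by DESeq2 and 2 with that block (Grb7, and Grb7 with Angptl7). Among genes not called, the sign turned in fits without 1 library for Ptpn11 (-0.0312 to 0.14), Akt1 (-0.0605 to 0.14), Itgb1 (-0.0534 to 0.20), Itga5 (-0.0873 to 0.26), Mmp14 (-0.11 to 0.26) and Hif1a (-0.10 to 0.13). The cause of these shifts was not tested. With 4 libraries a group, the interval of Tek held levels up to 2.29-fold higher and down to 0.535-fold.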
